A study of Mus musculus with 6 samples.

Results

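The genes described here encode the machinery that fuses secretory vesicles with their target membrane: SNARE proteins, the proteins that bind and prime them, and the synaptotagmins and their relatives. They were taken by name from the deposited table, as every symbol made of Stx, Snap, Vamp, Stxbp, Unc13, Rims, Cplx, Syt or Sytl with its number or letter. The rule found 62 genes among the 18437 in the table, and 61 of them passed the filter on low values. The RNA came from pancreatic islets, which make insulin and glucagon, of male mice aged 30 weeks. Sec16b-/- mice (knockout) gave 3 libraries and Sec16b+/+ mice (wild type) gave 3. The labels name no other allele or treatment, and they do not say how the knockout allele was made, in which cells it acts or whether animals were pooled. Values below are normalized counts, that is, gene counts which the authors divided by one factor per library, and they are listed in the order of replicates 1, 2 and 3.

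In beta cells, insulin granules fuse with the plasma membrane when calcium enters the cell. A syntaxin and a SNAP protein on the plasma membrane zip together with a VAMP protein on the granule. Syntaxin-binding proteins, Unc13 and Rims proteins prepare the complex, complexins hold it, and synaptotagmins sense the calcium. Other syntaxins and VAMPs serve the earlier steps of the same route, from the endoplasmic reticulum (ER) through the Golgi, and the endosomes. Sec16b encodes a protein of ER exit sites, where that route begins. The comparison asked whether islet transcripts differed without it.

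The transcript of the targeted gene was present in every library. Sec16b was at 553, 433 and 749.5 in knockout libraries, against 1655, 773 and 1786 in wild type libraries. Knockout values all lay below wild type values, by a small margin at the nearest point. Limma did not call it over all genes (adjusted p = 0.993), and the two-sided exact permutation test gave p = 0.1, the smallest that 3 libraries against 3 allow. All 10 genes of the beta cell marker list were in the table and passed the filter, Ins1 and Ins2 among them. Other cells were present in unequal amounts. Of all reads, the 35 acinar genes in the table, which mark the exocrine pancreas, held 18.6, 8.90 and 0.829% in knockout and 6.12, 1.34 and 3.77% in wild type libraries. The 10 beta cell genes held 9.36, 10.2 and 14.8% in knockout and 11.5, 12.3 and 15.1% in wild type libraries, and the 9 lymphocyte genes held 0.533, 0.0441 and 0.0328% in knockout and 0.103, 0.00112 and 0.00277% in wild type libraries. The 10 delta and PP cell genes held 0.180, 0.307 and 0.241% in knockout and 0.188, 0.217 and 0.199% in wild type libraries, which overlapped. Their summed normalized level was 48866 to 71527 in knockout libraries and 42507 to 48677 in wild type libraries, with a narrow gap between the genotypes. The summed level of the 12 alpha cell genes was 250510.5 to 673564 in knockout libraries and 182226 to 375572 in wild type libraries, with 11 fold changes above zero. That of the 14 endothelial genes was 15223 to 17493 in knockout libraries and 12299 to 15961 in wild type libraries, with 13 above zero. Of the 10 beta cell genes, 9 fold changes were below zero and 1 above it. Above zero were also 33 of the 35 acinar genes, 9 of the 10 delta and PP cell genes and all 9 lymphocyte genes. Limma called 0 genes of these lists, and their part in the results below was not tested. Depth was 22071895 to 24887766 reads in knockout libraries and 22566274 to 26806787 in wild type libraries. Fewer cells of a type and less RNA per cell cannot be told apart in bulk islets.

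None of the 61 tested genes of exocytosis passed the test between knockout and wild type islets. Limma called 0 of 61 members at an adjusted p under 0.05 (lowest adjusted p = 0.993), where it called 0.0% of the 16042 genes tested. At an unadjusted p under 0.05 it found 1 member, Snap91, on the lower side, where it found 3.08% of all genes, 1.36% of them lower. EdgeR called 0.0% of genes and had the same single member at an unadjusted p under 0.05, beside 3.17% of all genes. DESeq2 called 0 members and 0.114% of the genes to which it gave an adjusted p. It had 2 members at an unadjusted p under 0.05, Snap91 and Stx11, beside 3.28% of all genes. Fold changes below are on the log2(value + 1) scale, as knockout minus wild type, and understate the change of low genes. Of the members, 37 had a fold change below 0 and 24 above it, with a median of −0.05, beside −0.0030 over all genes tested, of which 50.6% were below 0. With libraries scaled to equal sums instead, 43 members were below 0 and 18 above it, and 62.6% of all genes were below 0. The sign of the fold change differed in at least 1 alternative for 35 of the 61 members. The log2 fold change of 45 of 61 members lay within 0.2 of zero. Knockout and wild type values did not overlap for 2 members, Snap29 and Syt11, both lower in knockout libraries. The share over all genes was 9.08%, or 5.22% for genes lower in knockout libraries.

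**Figure D1:**
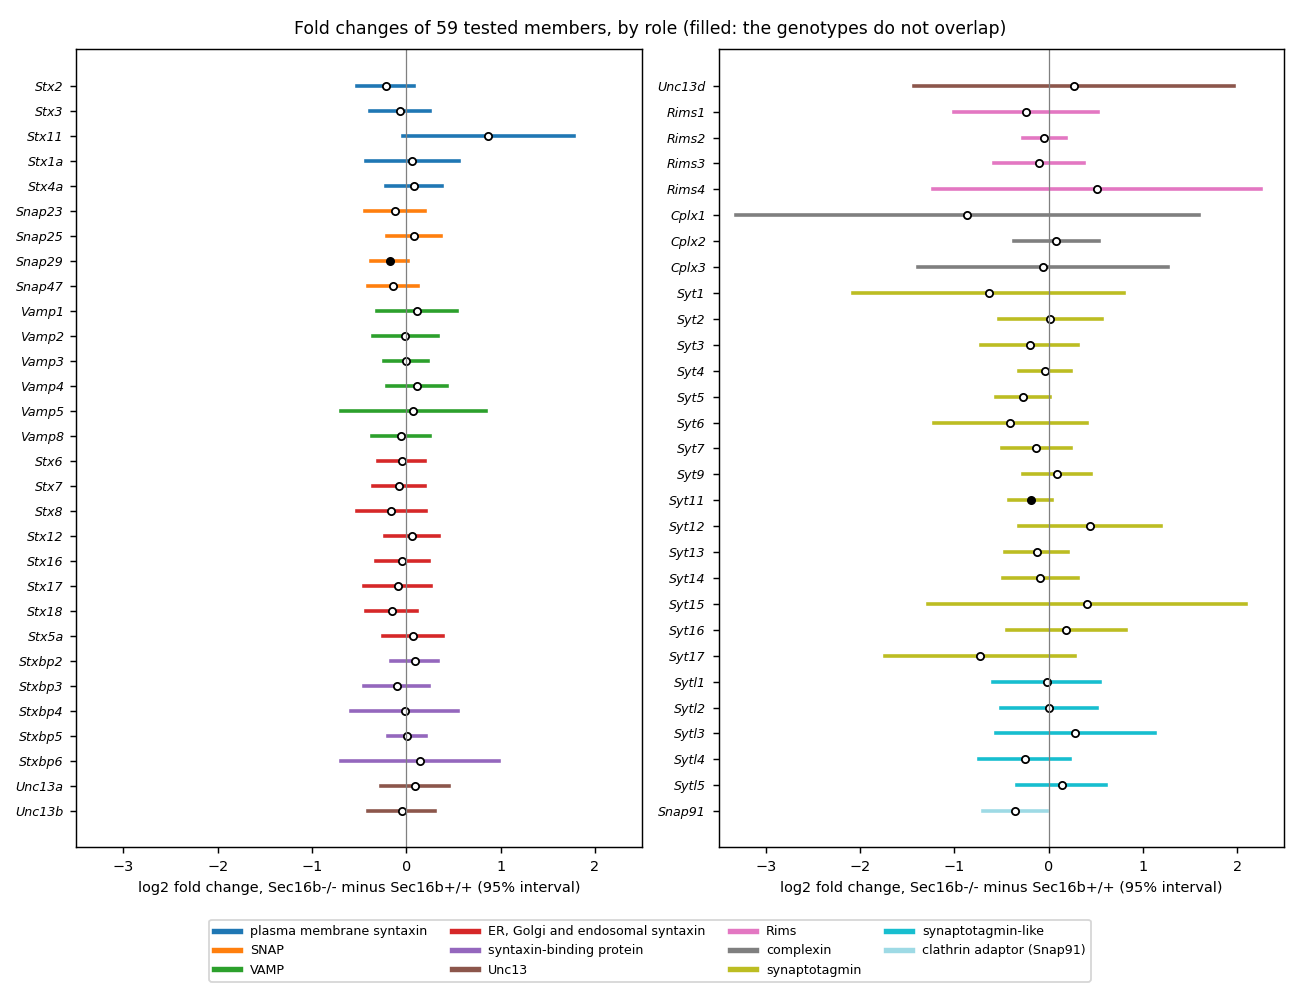
Log2 fold change of 59 tested members (points), knockout minus wild type, with limma's 95% interval (lines, coloured by role). Every interval but that of Snap91 reaches zero, and those of members with low counts, such as Cplx1 and Rims4, are the widest; filled points mark Snap29 and Syt11.

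The SNAREs that fuse insulin granules overlapped between the genotypes. Stx1a, the main plasma membrane syntaxin of regulated secretion, was at 405, 396 and 596 in knockout libraries, against 527, 375 and 425 in wild type libraries. Snap25, its partner, was at 3026, 3035 and 3853 in knockout libraries, against 2986, 2999 and 3327 in wild type libraries. Vamp2, the granule SNARE, was at 3777, 3829 and 5071 in knockout libraries, against 4493, 3752 and 4452 in wild type libraries. For all 3 genes knockout replicate 3 was the highest of the 6 libraries, while the other knockout libraries lay within the wild type range. The log2 fold changes were 0.06 (SE 0.21), 0.08 (SE 0.12) and −0.01 (SE 0.14). Limma's 95% intervals ran from −0.43 to 0.56 for Stx1a, from −0.20 to 0.37 for Snap25 and from −0.35 to 0.33 for Vamp2. None of these fold changes passed the test (adjusted p of at least 0.993).

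Plasma membrane syntaxins other than Stx1a did not pass the test either. Stx4a, which serves fusion in many cell types, was at 769, 652 and 683 in knockout libraries, against 745, 599 and 646 in wild type libraries, and Stx3, found on granules and at apical membranes, was at 2442, 2524 and 2040.2 in knockout libraries, against 2078, 2659.9 and 2609.7 in wild type libraries. Both genes overlapped between the genotypes, with fold changes of 0.08 (SE 0.12) and −0.07 (SE 0.13). Stx2, a plasma membrane syntaxin of many epithelia, was at 379, 411 and 463 in knockout libraries, against 470.1, 529 and 459.9 in wild type libraries, so that a single knockout library reached above the lowest wild type library. Its fold change was −0.22 (SE 0.13). Stx11, known for granule release in immune cells, had the highest fold change of all members, 0.87 (SE 0.38), with values of 357, 337 and 183 in knockout libraries, against 153, 234 and 100.2 in wild type libraries. Knockout replicates 1 and 2 exceeded every wild type library, but knockout replicate 3 lay below wild type replicate 2. The fold change ran from 0.56 without wild type replicate 3 to 1.17 without knockout replicate 3. Stx11 had no adjusted p under 0.05 in either of these fits. Ptprc, a marker of all white blood cells, was at 1416, 971 and 204 in knockout and 2697, 84.2 and 169 in wild type libraries, and the summed level of the 16 macrophage and dendritic cell genes was 3293 to 8205 in knockout libraries and 4092 to 8450 in wild type libraries. That of the 9 lymphocyte genes in the table, of 15 listed, was 7217 to 144335 in knockout libraries and 252 to 23408 in wild type libraries. The part of white blood cells in the Stx11 values was not tested. Stx19, an atypical syntaxin, was the member below the filter, with 5, 5 and 4 reads in knockout libraries and 4, 3 and 1 in wild type libraries.

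**Figure D2:**
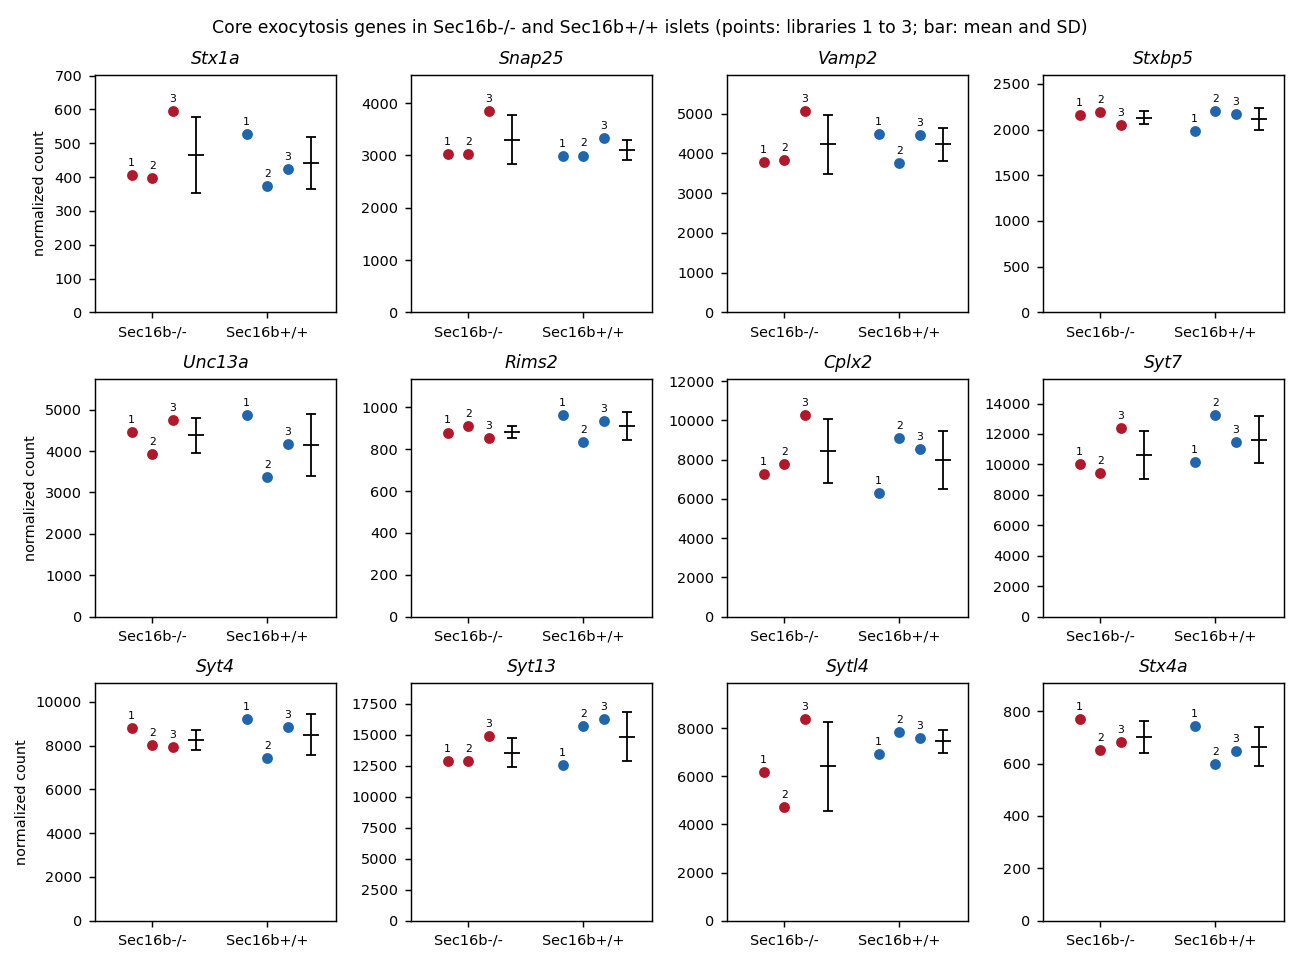
Normalized counts (vertical axes, from 0) of 12 core exocytosis genes in Sec16b-/- (red, left) and Sec16b+/+ (blue, right) libraries, with the replicate number at each point and the mean and SD as a black bar. The genotypes overlap for every gene shown, and knockout replicate 3 is the highest library for Stx1a, Snap25, Vamp2, Cplx2 and Sytl4.

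Among the SNAP genes, Snap29 was lower in all 3 knockout libraries. Snap29 encodes a soluble SNARE that acts in fusion at endosomes and autophagosomes, and it was at 1009.8, 978 and 936 in knockout libraries, against 1099.7, 1086 and 1120.2 in wild type libraries. The spread within each genotype was small, with 975 ± 37.1 in knockout and 1102 ± 17.0 in wild type libraries (SD, n = 3 each). Its log2 fold change of −0.18 (SE 0.08), which is 1.13-fold lower, did not pass limma's test (adjusted p = 0.993). Its genotypes also did not overlap under TMM scaling or with libraries scaled to equal sums. Snap23, the partner of syntaxins outside neurons, was at 1187, 939 and 897 in knockout libraries, against 1199, 1024 and 1052 in wild type libraries, with overlap and a fold change of −0.12 (SE 0.13). Snap47, another member of the family, had a fold change of −0.14 (SE 0.11). Of the 4 SNAP genes, 3 were on the lower side and 1, Snap25, on the higher side.

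Syt11, an atypical synaptotagmin that does not bind calcium, was the other member whose genotypes did not overlap. It was at 1337, 1315 and 1352 in knockout libraries, against 1569.8, 1637 and 1372 in wild type libraries. Wild type replicate 3 lay just above the highest knockout library, so the gap rests on a narrow margin. The log2 fold change of −0.19 (SE 0.10), which is 1.14-fold lower, did not pass the test (adjusted p = 0.993). When libraries were scaled to equal sums, the Syt11 genotypes overlapped.

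The sequences before the start sites of Snap29 and Syt11 are shown because these were the members whose genotypes did not overlap. They come from RefSeq on build GRCm38.p6, which held a start site for 47 of the 62 members, and the build behind the counts is not given in the sources used here. Each run holds the 250 bases before the start, 5′ to 3′ on the gene's strand. Capitals mark the GC box GGGCGG, which Sp-family factors are known to bind, and the letters TGACG of the cyclic AMP response element, each searched on both strands. No match overlapped another in these windows.
Snap29 (chr16:17405750-17405999, plus strand): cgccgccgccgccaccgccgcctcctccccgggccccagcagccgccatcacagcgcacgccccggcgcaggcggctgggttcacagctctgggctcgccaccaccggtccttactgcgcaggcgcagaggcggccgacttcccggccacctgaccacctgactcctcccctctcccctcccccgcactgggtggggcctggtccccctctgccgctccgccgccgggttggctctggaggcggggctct
Syt11 (chr3:88772600-88772849, minus strand): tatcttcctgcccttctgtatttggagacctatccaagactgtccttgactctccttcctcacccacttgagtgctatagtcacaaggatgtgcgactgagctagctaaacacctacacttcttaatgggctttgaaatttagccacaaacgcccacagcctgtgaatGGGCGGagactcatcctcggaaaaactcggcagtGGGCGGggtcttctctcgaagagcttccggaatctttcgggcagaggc
Syt11 held 2 GC boxes on the gene's strand, starting 82 and 48 bases before the start site, and no TGACG. Snap29 held neither set of letters in this window. A GC box was found in 32.7% of all 32851 windows of this length in the table, and in 60.7% of the 56 windows of members. TGACG was found in 17.8% of all windows and in 19.6% of those of members. These shares describe letters only.

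The remaining VAMP genes, which encode vesicle SNAREs, did not separate by genotype. Vamp3, a vesicle SNARE of most cell types, was at 1844, 1918 and 1638 in knockout libraries, against 1691, 1812 and 1920.3 in wild type libraries, and Vamp8, the VAMP of zymogen granules and late endosomes, was at 1131, 930.2 and 830.2 in knockout libraries, against 992, 968 and 1031 in wild type libraries. Vamp8 was highest in knockout replicate 1 and lowest in knockout replicate 3, the libraries of highest and lowest acinar share. The other libraries did not have the order of the acinar share. Knockout replicate 2, with an acinar share of 8.90%, was below every wild type library. Wild type replicate 3 was above wild type replicate 1, with shares of 3.77% and 6.12%. The part of acinar cells in the Vamp8 values was not tested. Its fold change was −0.06 (SE 0.13), and that of Vamp3 was −0.0074 (SE 0.10). Vamp4, a SNARE of the trans-Golgi network, was at 1664, 1881 and 2256 in knockout libraries, against 1722, 1652 and 1963 in wild type libraries, with a fold change of 0.11 (SE 0.13). Vamp1, close to Vamp2 and better known from neurons, had 0.11 (SE 0.18), and Vamp5, first described in muscle, 0.07 (SE 0.32) at fewer than 50 normalized counts. All 6 VAMP fold changes lay within 0.2 of zero, 3 on each side.

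Syntaxins of the ER, Golgi and endosomes also stayed within 0.2 of zero in all 8 cases. Stx5a, the syntaxin of ER-to-Golgi transport, was at 2271, 2096 and 2322 in knockout libraries, against 1999, 1869 and 2567 in wild type libraries. Its knockout values lay inside the range of the wild type values, with a fold change of 0.07 (SE 0.13). Stx18, which takes part in the return of Golgi vesicles to the ER, had a fold change of −0.16 (SE 0.11) and was at 828, 805 and 678 in knockout libraries, against 822, 842 and 907 in wild type libraries. Only knockout replicate 1 reached the wild type range. The endosomal syntaxins Stx7, Stx8 and Stx12 had fold changes of −0.07 (SE 0.12), −0.16 (SE 0.15) and 0.06 (SE 0.12). Stx6 and Stx16, both of the trans-Golgi network, had −0.05 (SE 0.10) and −0.05 (SE 0.12), and Stx17, the autophagosome syntaxin, −0.09 (SE 0.15). In this group 6 genes were on the lower side and 2, Stx5a and Stx12, on the higher side, and 0 passed the test.

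Syntaxin-binding proteins showed 3 fold changes on each side of zero. Stxbp2, used by secretory cells of the exocrine pancreas and the blood, was at 1382, 1298 and 1365 in knockout libraries, against 1386, 1120.3 and 1312 in wild type libraries. Its fold change was 0.09 (SE 0.10), and the genotypes overlapped. Stxbp5, or tomosyn, an inhibitor of SNARE assembly, was at 2155, 2191 and 2048 in knockout libraries, against 1981, 2205 and 2174 in wild type libraries. Among the tested members it had the smallest ratio of the highest to the lowest library, 1.11, and its 95% interval ran from −0.19 to 0.21. Stxbp3, the partner of Stx4a, had a fold change of −0.10 (SE 0.15), Stxbp4, which also binds Stx4a, −0.02 (SE 0.24), and Stxbp6, or amisyn, 0.14 (SE 0.35).

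The priming genes overlapped between genotypes as well. Unc13a, which opens syntaxin for assembly, was at 4469.9, 3928 and 4758 in knockout libraries, against 4869.9, 3375 and 4173 in wild type libraries, with a fold change of 0.09 (SE 0.15). Unc13b, its close relative, had −0.05 (SE 0.15). Rims2, a scaffold that ties Rab3 on the granule to the release site, was at 879.8, 911 and 853 in knockout libraries, against 963, 834 and 933 in wild type libraries, with a 95% interval from −0.27 to 0.18. Rims3, a short relative, was at 4196, 5709.6 and 6059.8 in knockout libraries, against 4409.7, 6200.0 and 6587 in wild type libraries. Replicate 1 was the lowest library of each genotype for Rims3, and the fold change was −0.10 (SE 0.20). Rims1, the neuronal scaffold, stayed at 13.0 to 20.3 normalized counts, with −0.24 (SE 0.32). Cplx2, the complexin that clamps and then promotes fusion, was at 7271, 7778 and 10275 in knockout libraries, against 6297, 9124 and 8518 in wild type libraries, and its fold change of 0.08 (SE 0.19) lay within the spread of both genotypes. Cplx3, known from retinal synapses, had −0.06 (SE 0.56) at 6.78 to 30.8 normalized counts.

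The synaptotagmins were the largest group of members, with 10 of 15 fold changes below zero and 5 above it. Syt7, the calcium sensor best known for insulin granules, was at 10048, 9430.4 and 12388 in knockout libraries, against 10149, 13244 and 11479 in wild type libraries. Its fold change was −0.13 (SE 0.15), with a 95% interval from −0.50 to 0.23, and the genotypes overlapped. Syt13, which binds no calcium, was at 12876, 12919.8 and 14921 in knockout libraries, against 12605, 15718 and 16267 in wild type libraries, with a fold change of −0.13 (SE 0.14). Syt4, known for setting the calcium sensitivity of mature mouse beta cells, was at 8790.2, 8006 and 7949.5 in knockout libraries, against 9201, 7447 and 8843 in wild type libraries. All 3 knockout values of Syt4 lay within the wild type range, with a fold change of −0.04 (SE 0.12). Syt5, a synaptotagmin of dense-core granules, was at 1134, 1118 and 1335 in knockout libraries, against 1627, 1332 and 1367 in wild type libraries. Knockout replicate 3 reached just above wild type replicate 2, and the fold change was −0.27 (SE 0.12) (unadjusted p = 0.0600, adjusted p = 0.993 in limma). Syt9, a fast calcium sensor, had 0.09 (SE 0.15). Syt2, close to Syt1, and Syt3 had 0.02 (SE 0.23) and −0.20 (SE 0.22). Syt14 and Syt16, relatives without calcium binding, had −0.09 (SE 0.17) and 0.19 (SE 0.27). Syt12 was at 142, 94.6 and 96.7 in knockout libraries, against 63.2, 118 and 69.5 in wild type libraries, a fold change of 0.44 (SE 0.32), with wild type replicate 2 above knockout replicates 2 and 3. Syt6, known from the sperm acrosome, had −0.40 (SE 0.34), and Syt15 0.41 (SE 0.71) on 3 to 20 reads a library.

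Synaptotagmin-like proteins, which bind Rab27 on granules, did not pass the test. Sytl4, or granuphilin, which docks insulin granules at the plasma membrane, was at 6175, 4707 and 8372 in knockout libraries, against 6932, 7858 and 7592 in wild type libraries. Knockout libraries 1 and 2 were below all wild type libraries and knockout library 3 above them. The fold change of −0.25 (SE 0.20) became −0.05 without knockout replicate 2 and −0.47 without knockout replicate 3. Sytl5 had 0.14 (SE 0.20), Sytl1 −0.02 (SE 0.24) and Sytl2 0.0050 (SE 0.21). Sytl3 was at 36.8, 26.2 and 18.9 in knockout libraries, against 20.0, 19.4 and 25.5 in wild type libraries, with 0.28 (SE 0.35). Of the 5 genes, 3 were on the higher side.

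Snap91 matched the naming rule but encodes a clathrin adaptor of endocytosis, not a SNARE. It was at 697, 651 and 772 in knockout libraries, against 995, 747 and 987 in wild type libraries, so that knockout replicate 3 lay above wild type replicate 2. The means were 707 ± 61.3 in knockout and 909.5 ± 141 in wild type libraries (SD, n = 3 each). Its fold change was −0.35 (SE 0.14), with the smallest unadjusted p of the members (0.0442) and a limma adjusted p of 0.993. The fold change kept its sign in all 18 alternatives, from −0.49 without wild type replicate 2 to −0.28 without wild type replicate 1.

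**Figure D3:**
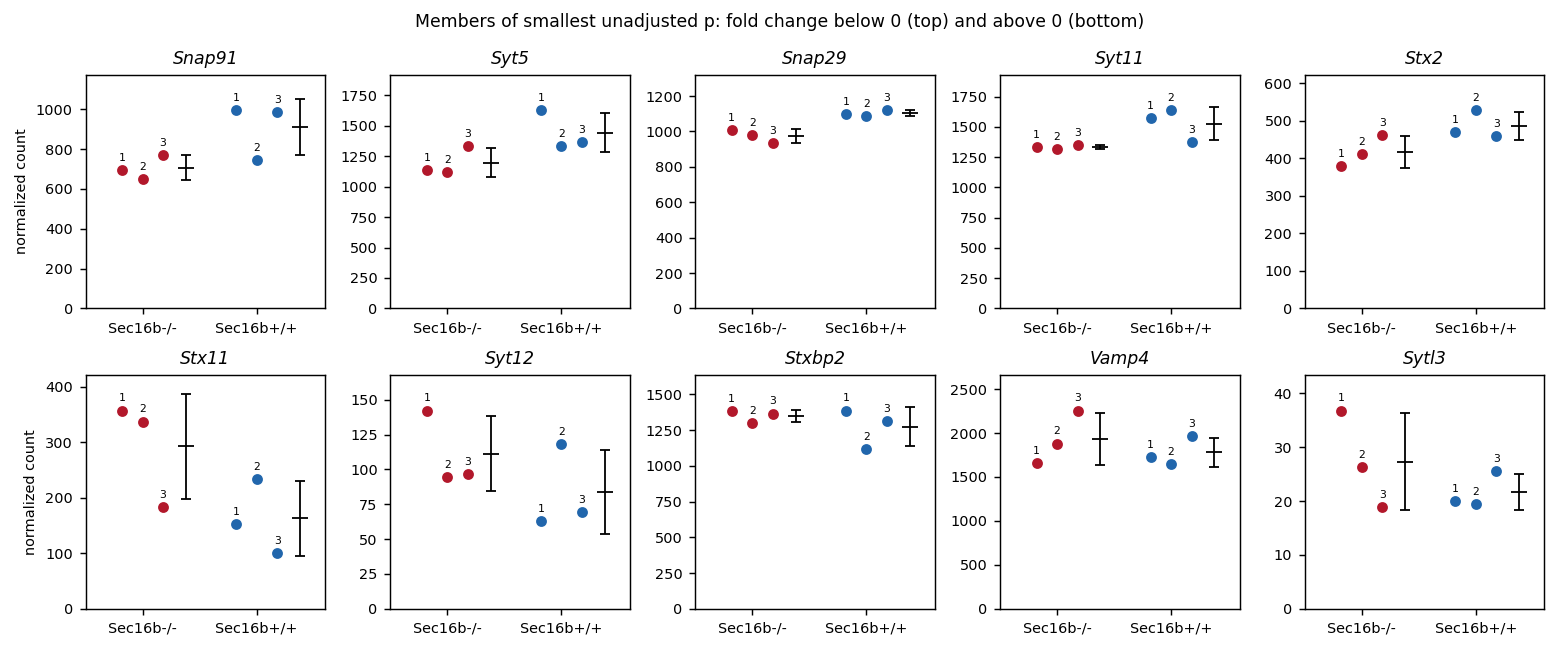
Normalized counts (vertical axes, from 0) of the 5 members of smallest unadjusted p with a fold change below 0 (top row) and above 0 (bottom row), in Sec16b-/- (red) and Sec16b+/+ (blue) libraries, with mean and SD as a black bar. Only Snap29 and Syt11 show knockout points that are all on one side of the wild type points.

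A few members varied far more between libraries than between genotypes. The highest library exceeded the lowest by less than 1.5 times in 35 of 61 members (57.4%), beside 45.6% of all genes tested. It exceeded it by more than 3 times in 9 members (14.8%), beside 16.9% of all genes. Cplx1, a complexin abundant in neurons, was at 49.1, 14.1 and 11.0 in knockout libraries, against 129, 7.75 and 46.6 in wild type libraries, a 16.7-fold range. Syt1, the calcium sensor of fast neuronal release, was at 169, 153 and 64.8 in knockout libraries, against 391, 86.2 and 188 in wild type libraries. Both were highest in wild type replicate 1. The fold change of Cplx1 was −0.86 (SE 1.03) and became 0.03 without that library, and that of Syt1 was −0.64 (SE 0.60) and became −0.10. Syt17 was also highest in wild type replicate 1, at 71.2 normalized counts, and so was Rims4, at 30.1. Not all members with a range above 3 times peaked there: Syt15 and Stx11 were highest in knockout replicate 1 and Cplx3 in wild type replicate 3. Wild type replicate 1 was the highest library for 31.1% of the tested members, beside 20.5% of all genes tested. The fold change of Syt17 was −0.73 (SE 0.42), or −0.40 without wild type replicate 1, and that of Rims4 was 0.51 (SE 0.73), or 1.15.

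Some markers of neurons and Schwann cells were highest in the same library. Prph, an intermediate filament of peripheral neurons, was at 84.7, 6.56 and 3.99 in knockout libraries, against 369.9, 15.5 and 68.6 in wild type libraries. Ngfr, a neurotrophin receptor, was at 54.0, 23.4 and 13.0 in knockout and 126, 43.6 and 30.8 in wild type libraries, and Elavl3, a neuronal RNA-binding protein, was at 3.68, 7.49 and 2.99 in knockout and 33.1, 7.75 and 11.4 in wild type libraries. All 3 markers were highest in wild type replicate 1, as was Sox10 of Schwann cells, at 30.1. The summed level of the 13 of 15 listed marker genes that are in the table, which include Snap91, Th and Tubb3, did not follow this pattern, at 7266 to 7707 in knockout libraries and 6698 to 7931 in wild type libraries. Of the neuronal genes that islets also express, Elavl4 was highest in knockout replicate 3 and Tubb3 in wild type replicate 2. The part of these cells in the values of Cplx1, Syt1, Syt17 and Rims4 was not tested. Unc13d, the Unc13 protein of blood cells, was at 109, 117 and 52.8 in knockout libraries, against 219, 31.0 and 56.3 in wild type libraries. Its highest library was again wild type replicate 1, where Ptprc also had its highest value, and its fold change was 0.27 (SE 0.71), or 1.05 without that library. The part of blood cells in the Unc13d values was not tested.

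**Figure D4:**
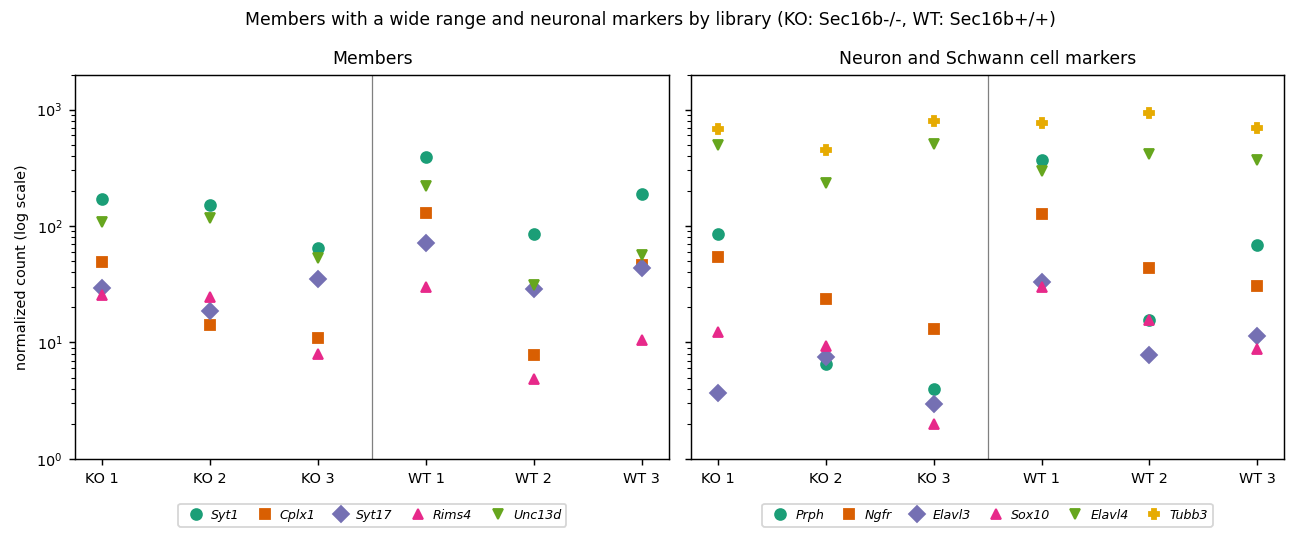
Normalized counts (log scale) of 5 members with a wide range (left) and of 6 neuron and Schwann cell markers (right) in each library, Sec16b-/- libraries to the left of the grey line and Sec16b+/+ libraries to its right. Wild type replicate 1 is highest for all 5 members shown and for Prph, Ngfr, Elavl3 and Sox10, but not for Elavl4 and Tubb3. The members shown were picked from those with a wide range, and Syt15, Stx11 and Cplx3, not shown, were highest in other libraries.

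Ratios between related members compare libraries free of gene length and scaling, and they were chosen after the values were seen and not tested. Snap23 over Snap25 was 0.392, 0.309 and 0.233 in knockout libraries, against 0.401, 0.342 and 0.316 in wild type libraries. Vamp8 over Vamp2 was 0.300, 0.243 and 0.164 in knockout libraries, against 0.221, 0.258 and 0.232 in wild type libraries. In both of these ratios, the order among knockout libraries was replicate 1, then 2, then 3, and so was the order of their acinar share. Among wild type libraries neither of these ratios had the order of the acinar share, which was replicate 1, then 3, then 2. Vamp3 over Vamp2 was 0.488, 0.501 and 0.323 in knockout libraries, against 0.376, 0.483 and 0.431 in wild type libraries, and Stx3 over Stx1a was 6.03, 6.37 and 3.42 in knockout libraries, against 3.94, 7.10 and 6.14 in wild type libraries. In both of these, knockout replicate 2 was the highest of the knockout libraries, so they did not have the order of the acinar share. The part of acinar cells in these ratios was not tested. Sytl1 over Sytl4 was 0.0890, 0.0716 and 0.0429 in knockout libraries, against 0.0568, 0.0437 and 0.0676 in wild type libraries, with the same order among knockout libraries. Unc13b over Unc13a was 0.437, 0.430 and 0.479 in knockout libraries, against 0.441, 0.513 and 0.539 in wild type libraries, and Stx4a over Stx1a was 1.90, 1.65 and 1.15 in knockout libraries, against 1.41, 1.60 and 1.52 in wild type libraries. Sytl1 over Sytl4 and Stx4a over Stx1a both had the order replicate 1, then 2, then 3 among knockout libraries. Neither had the order of the acinar share among wild type libraries. Syt5 over Syt7 was 0.113, 0.119 and 0.108 in knockout libraries, against 0.160, 0.101 and 0.119 in wild type libraries. Genotypes overlapped for all of these ratios.

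**Figure D5:**
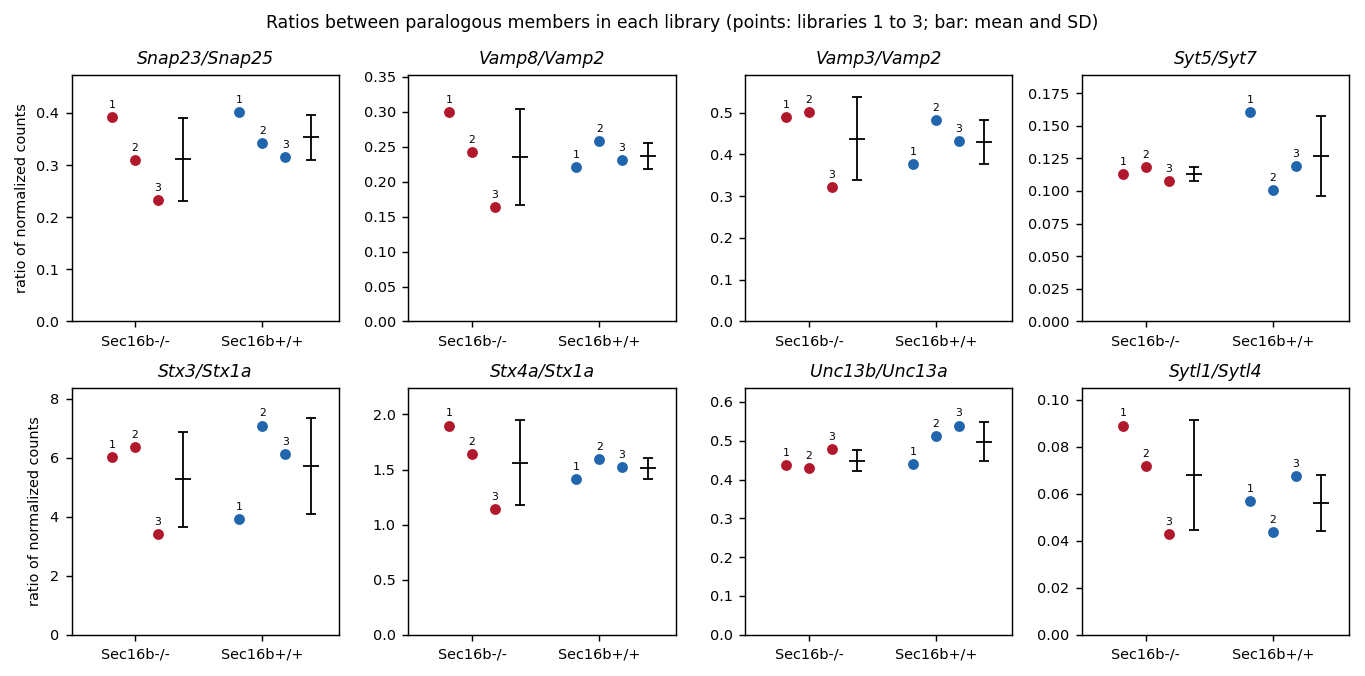
Ratio of normalized counts (vertical axes, from 0) between related members in Sec16b-/- (red) and Sec16b+/+ (blue) libraries, with mean and SD as a black bar. Knockout replicate 1 is above knockout replicate 3 in every panel except Unc13b over Unc13a, and the genotypes overlap throughout.

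All 62 members together took 0.412, 0.473 and 0.582% of reads in knockout libraries and 0.516, 0.548 and 0.538% in wild type libraries. The exact 95% Clopper-Pearson intervals, which cover counting error only, ran from 0.409% to 0.415% in the lowest library and from 0.579% to 0.585% in the highest. Knockout replicate 3 was thus above all wild type libraries and the other knockout libraries below them. These are shares of all reads, of which acinar genes held 18.6, 8.90 and 0.829% in knockout and 6.12, 1.34 and 3.77% in wild type libraries. The part of acinar reads in the member shares was not tested.

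Other genes of the exocytosis pathway, outside the members, were also uncalled. Of 40 listed, 38 were tested. Limma called 0 of them, 25 fold changes were below zero and 13 above it, and their median was −0.09. The genotypes did not overlap for 6 genes lower and 1 gene higher in knockout libraries. Over all genes these shares were 5.22% and 3.85%. Rab3d, a Rab protein of secretory granules, was at 5404, 4753 and 4992 in knockout libraries, against 5836, 5632 and 7364 in wild type libraries, with a fold change of −0.31 (SE 0.13). Doc2b, a calcium sensor that binds Unc13, was at 137, 223 and 282 in knockout libraries, against 332, 286 and 315 in wild type libraries, with −0.59 (SE 0.27). For both genes every knockout library was below every wild type library. Exoc8, of the exocyst tether, had −0.26 (SE 0.12). Its knockout values were also all below its wild type values, at 627, 694 and 737 against 750, 917 and 808. Baiap3, a relative of the Unc13 proteins, was the gene whose knockout values were all higher, at 3177, 3231 and 3777 in knockout libraries, against 1535, 2387 and 2494 in wild type libraries. Its fold change was 0.69 (SE 0.20), with an unadjusted p of 0.0096 and an adjusted p of 0.993 in limma. Mctp2 and Rph3al, a Rab effector of granules, had 0.69 (SE 0.35) and 0.19 (SE 0.18).

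The further SNAREs and Sec1-type proteins of the ER, Golgi and endosomal routes were mostly on the lower side. Of 19 listed, 18 were tested, with 16 fold changes below zero, 2 above it and a median of −0.07, and limma called 0. Over all genes 50.6% were below zero. The genotypes did not overlap for 3 of the 18 genes, all lower in knockout libraries, where the share over all genes was 5.22%. Scfd1, the Sec1-type partner of Stx5a, was at 2773, 2319 and 3109 in knockout libraries, against 3323, 3154 and 3274 in wild type libraries. Ykt6, a SNARE that acts at the Golgi, was at 2778, 2549 and 2772 in knockout libraries, against 3119.6, 3153 and 2823 in wild type libraries, and Vps33a, of endosomal tethering, had −0.13 (SE 0.09). The knockout values of Scfd1, Ykt6 and Vps33a were all below their wild type values. The fold changes of Scfd1 and Ykt6 were −0.26 (SE 0.12) and −0.17 (SE 0.09). Vps33a was at 1124, 1230 and 1272.8 in knockout libraries, against 1318, 1360 and 1279.3 in wild type libraries, a narrow margin. Use1, a SNARE of transport back to the ER, had 0.15 (SE 0.12), and Bet1l 0.01 (SE 0.11).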

How the data were processed

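Islets were frozen and RNA was taken up in Trizol, per the labels' protocols. HISAT2 was the aligner named in the submitters' processing notes. The sources used here state no version, counter, build or strand setting, so genes that overlap or are near copies may share reads. The deposited signal values are normalized: the authors divided each library's gene counts by 1 number, since 100.0% of values are whole multiples of 1 step per library (within 0.01 reads). The table holds 0 values at zero.

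Genes reaching 10 in 3 or more libraries were tested (16042). Limma 3.58.1 in R 4.3.3, with a mean-variance trend, was run on log2(value + 1) over all of them; tests were two-sided and p-values were adjusted by Benjamini-Hochberg, with a threshold of 0.05. The script was tested on simulated data. Count tests on the recovered whole reads were alternatives: edgeR 4.0.16 called 0 genes and DESeq2 1.42.0 called 12. Other alternatives changed pseudocount, filter, scaling or variance model, added a replicate block or an acinar covariate, or left out each library.

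Some members are counted but not reported one by one here. Members and lists were chosen with earlier results of these data known. Values per library are given for the core members and the 5 of smallest p in each direction. Stx18, Rims3, Syt1, Syt17, Unc13d and the single marker genes were chosen after their values were seen. Of each pathway list the 3 genes of smallest p per direction are named. No source says that libraries came from separate animals, so the p-values cover only the spread between these samples, which may be technical. Libraries of 1 genotype differed beyond sampling noise (chi-square per degree of freedom of at least 57.0).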

Additional observations from a re-analysis of the deposited data

How the results depend on the processing

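No member passed the threshold in any of the 18 alternatives, and the lowest adjusted p of a member was 0.701. Over all genes DESeq2 called 12 and every other fit 0. The Sec16b fold change ran from −1.61 to −1.002 with a library left out. The number of members whose genotypes did not overlap was 4 of 61 with libraries scaled to equal sums, where 7.28% of all genes did not overlap, and 5 to 13 with a library left out, where 15.7% to 25.1% of all genes did not overlap. The median log2 fold change of the members was −0.12 with equal sums, a scaling that moved the median of all genes by −0.07. It ran from −0.06 to −0.0067 with a library left out, highest without wild type replicate 3. Equal sums left 43 members below zero and 18 above it. The sign of the fold change held in all alternatives for 26 of 61 members, 21 lower and 5 higher, and changed in at least 1 for 35. Knockout and wild type replicates share numbers, and the main fit did not take them as pairs. The deviations of same-numbered libraries correlated by 0.43, 0.0037 and 0.37. Libraries of different numbers were not compared, so these values cannot settle whether the numbers mark pairs. With the replicate block 0 members were called in limma (lowest adjusted p = 0.837), and 2 had an unadjusted p under 0.05, Snap91 and Stx11. Over all genes 864 had an unadjusted p under 0.05 with the block, against 494 in the main fit. DESeq2 gave no adjusted p for 13 members. Members with few reads, Cplx3, Syt15 and Rims4 among them, have wide intervals at this depth.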
